A study of Mus musculus with 16 samples.

Results

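The genes described are 36 components of the triad and of excitation-contraction coupling in skeletal muscle, chosen by a list of symbols for what their proteins do. They are 36 of the 29730 genes in the count table, and all 36 had enough reads to be among the 14960 genes tested. RNA was sequenced from the tibialis anterior, a fast muscle of the front of the leg, of males at 7 weeks of age on a background labelled C57BL/6N. There were 4 samples in every group, namely WT mice treated with PBS (WT_PBS) or with ASO1 (WT_ASO) and Bin1mck-/- mice treated with PBS (KO_PBS) or with ASO1 (KO_ASO). ASO1 is an antisense oligonucleotide, a synthetic nucleic acid that binds a transcript by base pairing and reduces it, and according to the title it acts on Dnm2, which encodes the membrane-cutting GTPase dynamin 2. The title also calls Bin1mck-/- a mouse model of recessive centronuclear myopathy. Which part of Bin1 the line lacks, in which cells, and the dose of ASO1 were not given in the sources used here. Nothing in the labels says that the 4 samples of a group came from separate animals beyond their replicate numbers. P values therefore set differences between groups against a spread estimated from these samples.

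A triad is the place in a muscle fibre where a transverse tubule, an inward fold of the surface membrane, lies between a pair of sacs of the sarcoplasmic reticulum, the calcium store of the fibre. When an action potential runs down the tubule, the voltage sensor in the tubule wall opens the ryanodine receptor in the facing sac by direct contact, and calcium flows out and starts contraction. BIN1 binds and curves membranes and is known for shaping transverse tubules, and dynamin 2 acts on the same membranes.

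By role, 12 genes belong to the release complex in the reticulum membrane and its lumen (Ryr1, Ryr3, Fkbp1a, Casq1, Casq2, Trdn, Asph, Jsrp1, Hrc, Srl, Tmem38a, Tmem38b). A further 6 encode the voltage sensor, its subunits and a T-type channel (Cacna1s, Cacnb1, Cacng1, Cacna2d1, Stac3, Cacna1h), and 4 encode proteins of the junctional membranes (Jph1, Jph2, Sypl2, Speg). Store-operated calcium entry is represented by 3 genes (Stim1, Stim2, Orai1), extrusion across the surface membrane by 4 (Atp2b1, Atp2b4, Slc8a1, Slc8a3), calcium buffers and a second release channel by 3 (Pvalb, Calr, Itpr1), and the calmodulin-dependent kinases CaMKII by 4 (Camk2a, Camk2b, Camk2d, Camk2g).

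Of these 36 genes, 7 differed between genotypes in saline-treated mice, and the 250 bases before the RefSeq start site are shown for the 5 of them that have an entry in the promoter table, which Camk2a and Jph1 do not. The windows lie on GRCm38.p6 at chr2:163397994-163398243 for Jph2 (minus strand), chr12:81333181-81333430 for Slc8a3 (minus strand), chr5:53998273-53998522 for Stim2 (plus strand), chr15:78206401-78206650 for Pvalb (minus strand) and chr3:126596701-126596950 for Camk2d (plus strand). The RefSeq start of Camk2d lies downstream of the start that GENCODE gives, so its window falls within the annotated gene. The last bases of the Stim2 window likewise lie past the GENCODE start. All 5 are written from 5′ to 3′ along the gene, and capitals mark CANNTG, the E-box that muscle regulatory factors are known to bind, which reads the same on both strands.
Jph2: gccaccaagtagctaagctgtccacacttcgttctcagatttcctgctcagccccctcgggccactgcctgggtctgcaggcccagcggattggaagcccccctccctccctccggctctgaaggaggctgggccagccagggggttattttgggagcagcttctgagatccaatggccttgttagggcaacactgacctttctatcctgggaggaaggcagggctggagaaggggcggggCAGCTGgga
Slc8a3: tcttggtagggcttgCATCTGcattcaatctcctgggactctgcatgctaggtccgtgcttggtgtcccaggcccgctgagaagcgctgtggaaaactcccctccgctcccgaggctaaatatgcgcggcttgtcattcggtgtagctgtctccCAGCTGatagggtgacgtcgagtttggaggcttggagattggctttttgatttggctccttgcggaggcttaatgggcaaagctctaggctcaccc
Stim2: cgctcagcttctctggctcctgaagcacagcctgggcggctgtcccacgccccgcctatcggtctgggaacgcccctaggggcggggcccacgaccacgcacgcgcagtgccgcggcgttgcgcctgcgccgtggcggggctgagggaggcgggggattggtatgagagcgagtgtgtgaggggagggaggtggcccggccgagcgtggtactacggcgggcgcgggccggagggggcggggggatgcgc
Pvalb: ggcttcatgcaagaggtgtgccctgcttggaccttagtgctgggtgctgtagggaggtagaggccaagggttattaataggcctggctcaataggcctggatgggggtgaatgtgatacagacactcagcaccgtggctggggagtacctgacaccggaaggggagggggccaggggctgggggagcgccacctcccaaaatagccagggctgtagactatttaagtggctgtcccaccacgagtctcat
Camk2d: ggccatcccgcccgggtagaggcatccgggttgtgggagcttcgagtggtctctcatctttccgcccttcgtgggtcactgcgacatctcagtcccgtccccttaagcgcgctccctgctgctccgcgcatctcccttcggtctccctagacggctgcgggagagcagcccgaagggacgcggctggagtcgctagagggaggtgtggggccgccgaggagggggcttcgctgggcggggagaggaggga
Jph2 held 1 match, CAGCTG, 9 bases before the start, and Slc8a3 held 2, CATCTG and CAGCTG, at 235 and 96 bases. The windows of Stim2, Pvalb and Camk2d held 0. Such a match is common, since 66.0% of 27025 windows of this length over all genes held at least 1, as did 14 of the 23 triad genes with a window. GC content was 62.0% for Jph2, 56.0% for Slc8a3, 74.8% for Stim2, 58.4% for Pvalb and 68.4% for Camk2d, against a median of 52.0% over all genes. The matches are letters in a window and were not tested as binding sites.

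Total counts ran from 27591900 to 40862854 per sample. Bin1 measured 475.5, 553.7, 486.9 and 462.6 CPM (read counts scaled to a common library size, with TMM factors) in WT_PBS and 47.7, 40.8, 43.7 and 47.4 CPM in KO_PBS, and Dnm2 ran from 50.2 to 67.7 CPM in the 8 PBS samples and from 20.7 to 31.1 CPM in the 8 ASO1 samples, so both targeted genes followed their labels. Fast fibre markers, 13 genes abundant in fast muscle fibres, summed to 182358 to 222081 CPM in WT_PBS with none at 0. The sum includes Acta1, which is not particular to fast fibres. Replicate 1 of KO_PBS was the lowest of its group in 20 of the 36 genes and replicate 2 of WT_PBS the highest of its group in 24. In whole muscle, fewer fibres and less RNA per fibre cannot be told apart.

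Levels of the 36 genes spanned more than 5 orders of magnitude when CPM was divided by the length of all annotated exons. In WT_PBS parvalbumin (Pvalb), the soluble calcium buffer of fast fibres, was the most abundant at 9420 CPM per kb. It was followed by Casq1, the calsequestrin that stores calcium in the reticulum of fast fibres, at 2134 CPM per kb, and Tmem38a, the TRIC-A counter-ion channel, at 606 CPM per kb. The other end held the T-type channel Cacna1h at 0.51 CPM per kb and the ryanodine receptor Ryr3 at 0.04 CPM per kb, from 9 to 39 counts per sample. Ryr1 made up 99.98% ± 0.0048 of the ryanodine receptor level per kb in WT_PBS (SD, n = 4). Ryr3 also overlaps Aven on the opposite strand, and Casq1 and Itpr1 overlap Gm17224 and Gm44040 there. Whether the counting used strand is not given in the sources used here, so these 3 genes carry that uncertainty.

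**Figure D1:**
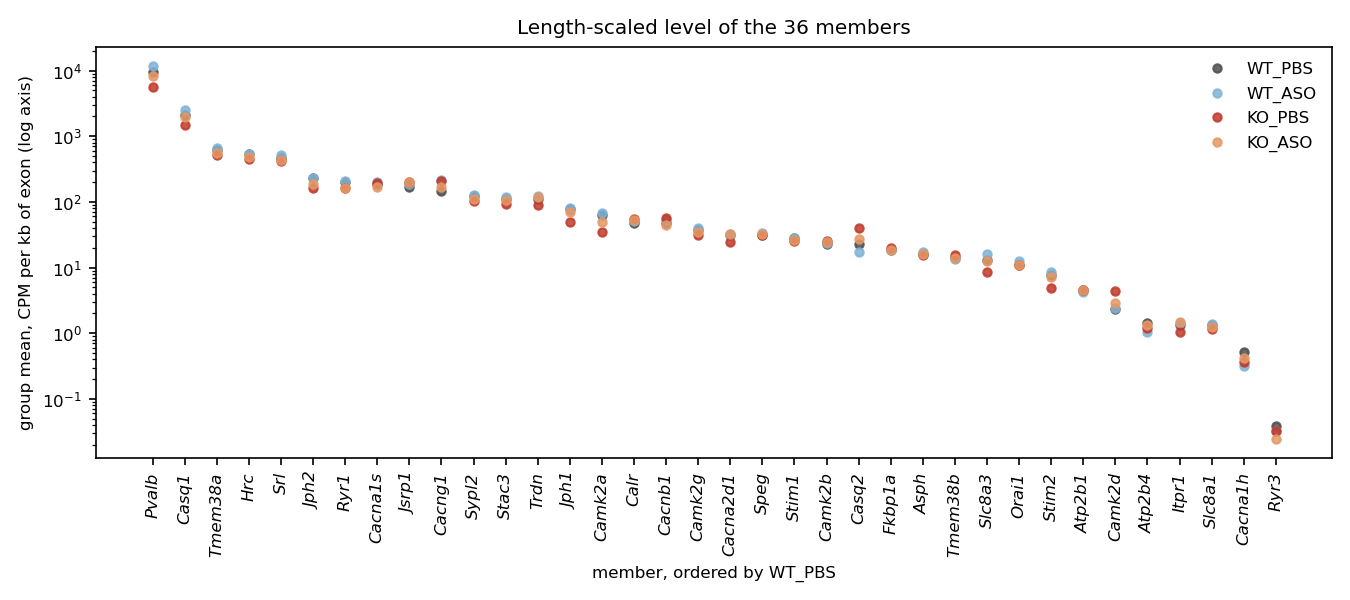
Group means of the 36 genes in CPM per kb of exon on a log axis, ordered by WT_PBS, 1 point per group of 4 samples. Pvalb stands highest at 9420 CPM per kb in WT_PBS and Ryr3 lowest at 0.04 CPM per kb, and the order of levels differs little between the 4 groups beside this span.

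The first comparison asked how the triad genes differed between Bin1mck-/- and wild-type muscle without oligonucleotide. In KO_PBS vs WT_PBS, 6 genes were lower, namely Camk2a, Pvalb, Jph1, Stim2, Slc8a3 and Jph2, and Camk2d was higher. Their levels in KO_PBS lay between 54.1% of the WT_PBS mean for Camk2a and 69.5% for Jph2, and at 187% for Camk2d. The 7 genes called are 7 of 36 tested at an adjusted P value under 0.05, where 12.6% of all genes tested were called, 7.43% higher and 5.12% lower. The median log2 fold change (log2FC) was -0.22 over the 36 genes and -0.01 over all genes tested, and 25 of the 36 values were negative. At an unadjusted P value under 0.05 stood 17 of the 36 genes, 2 higher and 15 lower, against 27.3% of all genes, 14.3% higher and 13.0% lower. The groups of 17 of the 36 did not overlap, 2 higher (Camk2d and Calr) and 15 lower in KO_PBS, where this held for 20.4% of all genes, 10.5% higher and 9.85% lower. No member reached a 2-fold difference, a log2FC of 1, in this fit. With 1 sample left out in turn, the highest log2FC was 1.05 for Camk2d and 1.08 for Casq2.

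In the release complex 0 of 12 genes passed the main edgeR test, with log2FC from -0.52 to 0.83 and 8 of the 12 negative. DESeq2 called Casq1, Hrc and Tmem38a lower (adjusted P = 0.0371, 0.0154 and 0.0378). Limma-voom, run throughout with quality weights that count outlying samples less, called Casq1, Hrc and Ryr1 lower (adjusted P = 0.0398, 0.0418 and 0.0386). Casq1 was also called lower by edgeR with the replicate number as a block. Casq1 measured 3860, 5471, 3480 and 3841 CPM in WT_PBS and 2110, 3033, 3291 and 3175 CPM in KO_PBS (log2FC -0.52 ± 0.18 SE, adjusted P = 0.070), and its groups did not overlap. Casq2, the calsequestrin of slow and cardiac muscle, went the other way in value, at 69.8, 52.0, 61.0 and 64.3 CPM in WT_PBS and 201.3, 110.7, 78.6 and 48.8 CPM in KO_PBS (log2FC 0.83 ± 0.42 SE, adjusted P = 0.22). Its KO_PBS samples were far apart and overlapped WT_PBS, and without KO_PBS replicate 1 the log2FC was 0.37. Ryr1, the release channel itself, ran from 4098 to 4740 CPM in WT_PBS and from 3254 to 4000 CPM in KO_PBS (log2FC -0.30 ± 0.12 SE, adjusted P = 0.11). The groups of Ryr1, Hrc, a calcium-binding protein of the reticulum lumen, and Tmem38a did not overlap either, all lower in KO_PBS, but none of these passed with edgeR.

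Among the voltage sensor genes 0 of 6 passed with edgeR, with log2FC from -0.52 to 0.48. Cacna1s, the pore and voltage sensor, differed little, with a log2FC of 0.03 and a 95% confidence interval from -0.17 to 0.23. Cacng1, its gamma subunit, measured 183.8, 232.0, 182.8 and 144.9 CPM in WT_PBS and 228.2, 277.5, 273.2 and 256.2 CPM in KO_PBS (log2FC 0.48 ± 0.15 SE, adjusted P = 0.0505). Only the highest WT_PBS sample reached into the range of KO_PBS. Cacng1 was called higher with DESeq2 (adjusted P = 0.0309), limma-voom (adjusted P = 0.0148), library totals only (adjusted P = 0.00484), the compared groups only (adjusted P = 0.0394) and without WT_PBS replicate 2 (adjusted P = 0.0255). The replicate number as a block in the fit gave the same call. Cacnb1, the beta subunit, had a log2FC of 0.26 and Stac3, an adaptor that the sensor needs at the triad, one of -0.27, both short of the threshold.

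Both junctophilins fell. These proteins hold the transverse tubule and the reticulum together, each anchored in the reticulum and bound to the tubule membrane. Jph1 (ENSMUSG00000042686, chromosome 1, 16964560 to 17097889, minus strand, GRCm38) measured 332.0, 508.5, 340.4 and 370.9 CPM in WT_PBS and 181.9, 262.7, 243.8 and 289.8 CPM in KO_PBS. All 4 KO_PBS samples lay below all WT_PBS samples (log2FC -0.67 ± 0.15 SE, adjusted P = 0.0082). Jph2 (ENSMUSG00000017817, chromosome 2, 163336242 to 163397993, minus strand) measured 892.0, 1209, 947.4 and 906.9 CPM in WT_PBS and 556.7, 716.0, 709.4 and 765.4 CPM in KO_PBS. The groups did not overlap (log2FC -0.53 ± 0.14 SE, adjusted P = 0.0261), although the call was lost without WT_PBS replicate 2 or KO_PBS replicate 1 (adjusted P of up to 0.0995). Sypl2 and Speg, the other 2 genes of this role, had log2FC of -0.29 and -0.03.

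Of the store-operated entry genes only Stim2 passed. STIM proteins sense calcium in the reticulum and open Orai1 in the surface membrane when the store empties. Stim2 (ENSMUSG00000039156, chromosome 5, 53998499 to 54121057, plus strand) measured 34.4, 48.2, 32.7 and 41.7 CPM in WT_PBS and 22.2, 24.7, 23.6 and 29.7 CPM in KO_PBS. It was lower in every KO_PBS sample than in any WT_PBS sample (log2FC -0.65 ± 0.16 SE, adjusted P = 0.0153), and the call was lost without WT_PBS replicate 2 or KO_PBS replicate 1 (adjusted P of up to 0.0573). Stim1, the more abundant sensor, had a log2FC of -0.15 and Orai1 one of -0.01. The share of Stim2 in the length-scaled STIM level ran from 18.9% to 25.0% in WT_PBS and from 15.2% to 17.7% in KO_PBS.

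For extrusion across the surface membrane, the sodium-calcium exchanger Slc8a3 passed and its relative Slc8a1 and the plasma membrane pumps Atp2b1 and Atp2b4 did not. Slc8a3 (ENSMUSG00000079055, chromosome 12, 81197915 to 81333180, minus strand) measured 69.0, 66.1, 74.3 and 68.6 CPM in WT_PBS and 33.7, 45.9, 49.8 and 52.3 CPM in KO_PBS. The WT_PBS samples were close together and all above KO_PBS (log2FC -0.61 ± 0.16 SE, adjusted P = 0.0211), with the call lost without WT_PBS replicate 3 or KO_PBS replicate 1 (adjusted P of up to 0.0790). Slc8a3 was the main exchanger of the pair in all 4 groups, at 87.6% of their length-scaled level in KO_PBS and 90.8% in WT_PBS.

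Pvalb (ENSMUSG00000005716, chromosome 15, 78191114 to 78206400, minus strand) measured 8773, 12924, 8399 and 9130 CPM in WT_PBS and 3453, 6783, 6451 and 6977 CPM in KO_PBS. The groups did not overlap, and 1 sample in each stood apart, the highest in WT_PBS and the lowest in KO_PBS (log2FC -0.73 ± 0.21 SE, adjusted P = 0.0327). Leaving out KO_PBS replicate 1, or replicate 2 or 4 of WT_PBS, ended the call, with an adjusted P value of up to 0.108. Calr, a calcium-binding chaperone, had a log2FC of 0.18 and the inositol trisphosphate receptor Itpr1 one of -0.38, neither past the threshold.

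The CaMKII genes held the largest differences in both directions. These kinases are switched on by calcium-bound calmodulin and are assembled from the products of 4 genes. Camk2a (ENSMUSG00000024617, chromosome 18, 60925618 to 60988152, plus strand) measured 426.6, 598.0, 418.6 and 458.7 CPM in WT_PBS and 180.3, 269.4, 286.8 and 292.8 CPM in KO_PBS (log2FC -0.89 ± 0.16 SE, adjusted P = 0.00224). Camk2d (ENSMUSG00000053819, chromosome 3, 126596302 to 126846326, plus strand) measured 45.9, 69.0, 46.1 and 52.3 CPM in WT_PBS and 107.3, 88.4, 80.8 and 123.1 CPM in KO_PBS (log2FC 0.91 ± 0.14 SE, adjusted P = 0.000677). In neither gene did the groups overlap, and both calls were kept whichever single sample was left out. Camk2b and Camk2g had log2FC of 0.18 and -0.28 and did not pass with edgeR. Camk2g, whose groups did not overlap, was called lower with limma-voom (adjusted P = 0.0454).

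**Figure D2:**
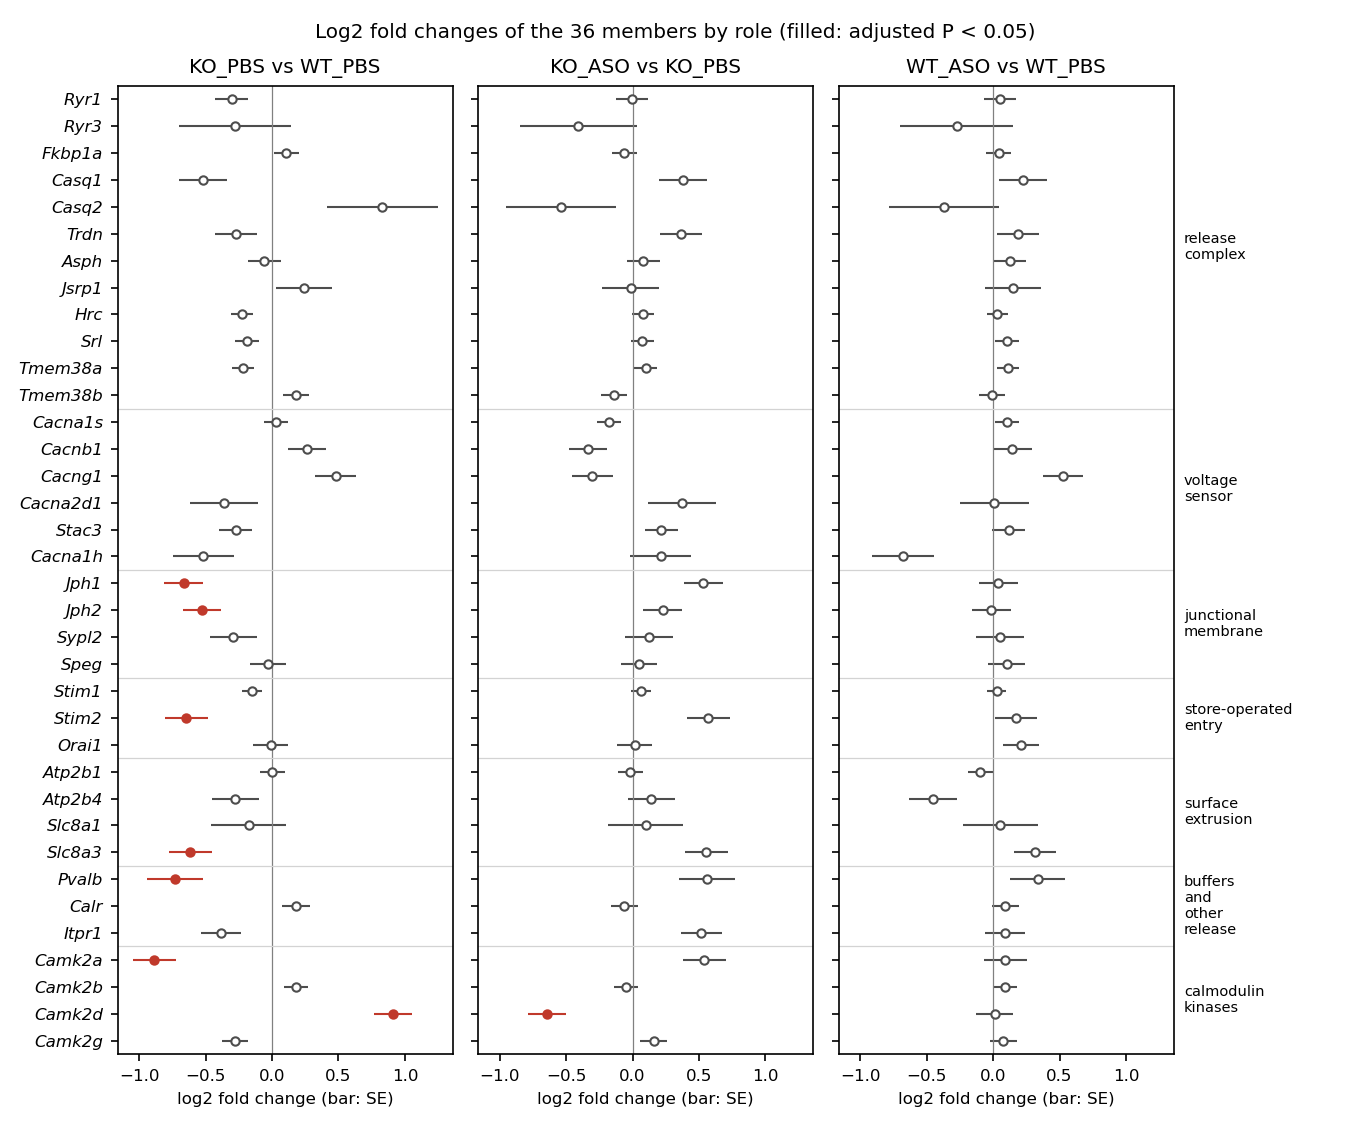
Log2 fold changes of the 36 genes by role in 3 comparisons, with bars of 1 SE and filled points for an adjusted P value under 0.05. In KO_PBS vs WT_PBS 6 filled points lie left of 0 and Camk2d lies right of it at 0.91, in KO_ASO vs KO_PBS only Camk2d is filled at -0.64, and in WT_ASO vs WT_PBS none is.

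Leaving out KO_PBS replicate 1 left 3 calls, Camk2d, Camk2a and Jph1. With libraries scaled to their totals alone, which moved the median of all genes to 0.14, the split of calls was 5 higher (Camk2d, Cacng1, Cacnb1, Camk2b and Tmem38b) and 3 lower (Camk2a, Jph1 and Stim2) in place of 1 higher and 6 lower. Pvalb, Jph2 and Slc8a3 were then at adjusted P values of 0.0647, 0.064 and 0.0641.

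Other cell and fibre markers moved with the genotype. Fast fibre markers summed to 147894 to 162901 CPM in KO_PBS, below every WT_PBS sample, and 4 of 13 were called lower (Tnnt3, Tnni2, Tnnc2 and Pfkm), with a median log2FC of -0.39. The fast myosins differed in sign and none was called, with log2FC of -0.71 for Myh4, 0.35 for Myh1 and 0.48 for Myh2. Acta1, the actin of all skeletal fibres and among the most abundant genes of the list, had a log2FC of -0.15. The 8 slow fibre markers summed to 112 to 408 CPM in WT_PBS and 288 to 545 CPM in KO_PBS with 1 called higher, and the 10 fetal and denervation markers to 71.6 to 81.4 CPM and 181 to 262 CPM with 8 called higher. The 12 macrophage markers summed to 52.1 to 83.8 CPM in WT_PBS and 133 to 412 CPM in KO_PBS, and 11 were called higher. Of the 7 fibroblast markers, which summed to 1052 to 1387 CPM in WT_PBS and 1327 to 2324 CPM in KO_PBS, 3 were called higher. Their part in the differences of Pvalb, Casq1 and the other triad genes was not tested.

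The make-up of CaMKII differed between groups when each subunit was expressed as its share of the length-scaled CaMKII level. In WT_PBS Camk2a held 50.1% ± 3.69 (SD, n = 4), Camk2g 30.02% ± 2.41, Camk2b 18.02% ± 2.42 and Camk2d 1.86% ± 0.189. In KO_PBS Camk2a held 35.7% ± 4.96 and Camk2d 4.67% ± 0.988, and Camk2b 26.9% ± 3.54 although its own level was not called. The lowest WT_PBS share of Camk2a was 46.6% and the highest KO_PBS share 39.1%, so these groups did not overlap. In KO_ASO Camk2a held 44.4% ± 1.89 and Camk2d 2.55% ± 0.328, between WT_PBS and KO_PBS in value. Shares are bound to sum to 100%, so they show unequal change among subunits and not the change of any 1 of them.

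**Figure D3:**
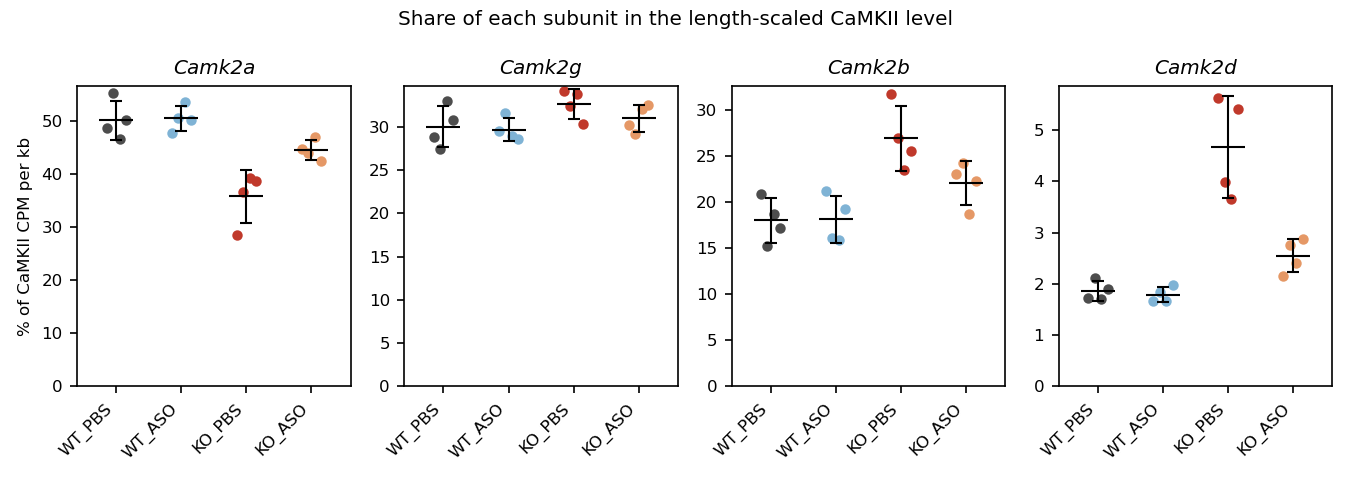
Share of each subunit gene in the summed CaMKII level (CPM per kb of exon) in every sample, with mean and SD of 4 samples per group and axes from 0. Camk2a falls from 50.1% in WT_PBS to 35.7% in KO_PBS while Camk2d stands at 1.86% and 4.67%, and KO_ASO lies between at 44.4% and 2.55%.

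The second comparison asked whether the oligonucleotide altered these genes in Bin1mck-/- muscle. In KO_ASO vs KO_PBS Camk2d fell, and it was the only one of the 36 genes to pass, where 3.64% of all genes were called and 2.83% were called lower. Camk2d measured 58.5, 69.4, 64.6 and 63.1 CPM in KO_ASO, all below the 4 KO_PBS samples (log2FC -0.64 ± 0.14 SE, adjusted P = 0.0199). The call was lost without KO_PBS replicate 1, KO_PBS replicate 4 or KO_ASO replicate 1, at an adjusted P value of up to 0.0751. At an unadjusted P value under 0.05, 9 genes stood out, 7 higher and 2 lower, against 17.7% of all genes, 7.35% higher and 10.3% lower. The groups of 5 genes did not overlap, 4 higher and 1 lower in KO_ASO, where 10.4% of all genes did not, 4.04% higher and 6.34% lower.

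The 6 genes that were lower in KO_PBS had positive values in this comparison but did not pass in the main edgeR fit. DESeq2 and limma-voom with quality weights both called Jph1, Stim2, Slc8a3 and Camk2a higher, with adjusted P values from 0.0119 to 0.0286. With edgeR on the compared groups only Stim2 was called higher (adjusted P = 0.0189), and without KO_ASO replicate 4 so were Jph1 (adjusted P = 0.0432), Camk2a and Slc8a3. The replicate number as a block in the edgeR fit gave Camk2a, Jph1 and Stim2 as higher. Jph1 measured 348.3, 375.7, 377.4 and 314.3 CPM in KO_ASO (log2FC 0.53 ± 0.15 SE, adjusted P = 0.0577), and Stim2 measured 35.1, 35.7, 36.6 and 41.5 CPM (log2FC 0.57 ± 0.16 SE, adjusted P = 0.0608). All KO_ASO samples of both genes lay above all KO_PBS samples, as did those of Camk2a and Pvalb. Camk2a measured 402.1, 366.4, 416.9 and 309.1 CPM in KO_ASO (log2FC 0.54 ± 0.16 SE, adjusted P = 0.0765). Slc8a3, at 74.1, 76.4, 67.1 and 49.1 CPM, had 1 KO_ASO sample within the range of KO_PBS (log2FC 0.55, adjusted P = 0.0686). Jph2, at 793.5, 852.8, 915.1 and 651.9 CPM, had the smallest value of the 6 (log2FC 0.23 ± 0.14 SE, adjusted P = 0.459). These values share the KO_PBS samples with the genotype comparison, so a chance low or high there moves both in opposite directions.

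**Figure D4:**
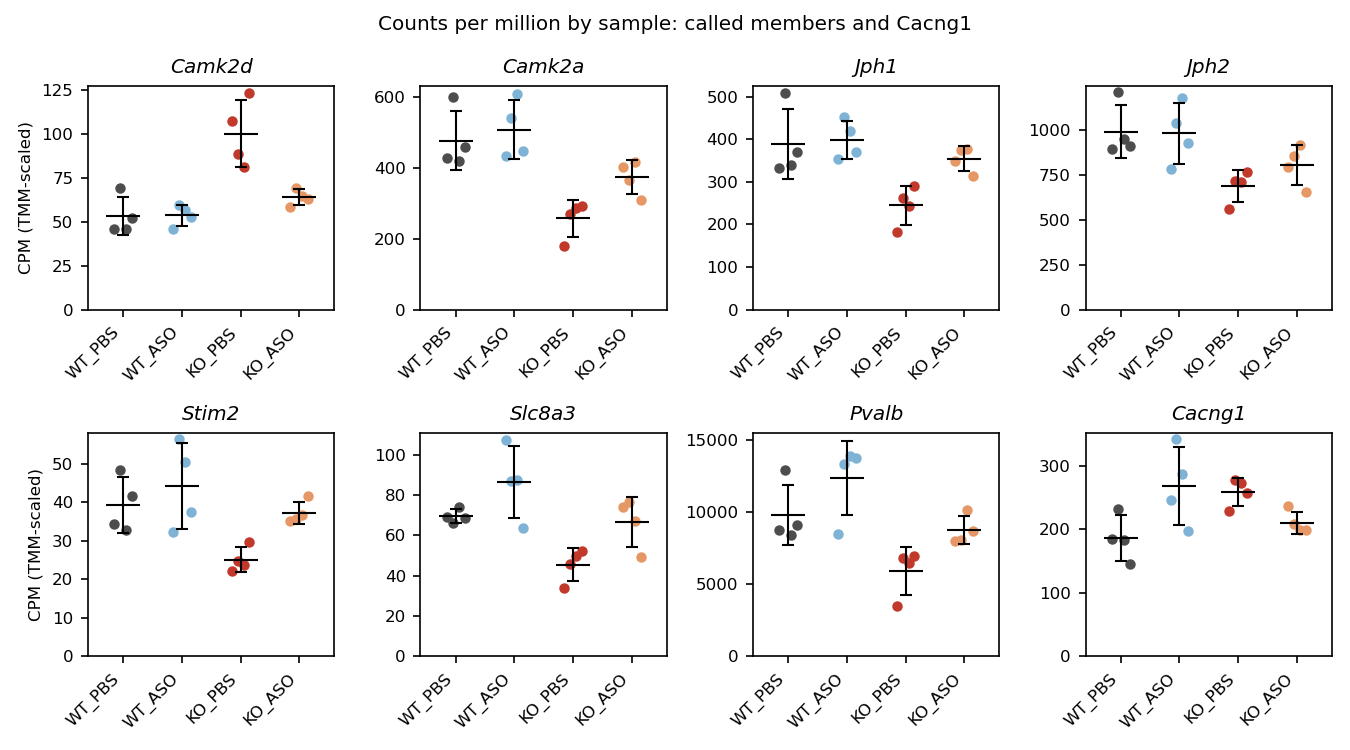
CPM in every sample for the 7 genes called in KO_PBS vs WT_PBS and for Cacng1, with mean and SD of 4 samples per group and axes from 0. The 4 KO_PBS points lie apart from the 4 WT_PBS points in all 7 called genes, and the KO_ASO points of Camk2d, between 58.5 and 69.4 CPM, lie below the lowest KO_PBS point of 80.8 CPM.

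Of the other genes, Casq2 had a log2FC of -0.54 ± 0.41 SE (adjusted P = 0.556), with overlapping groups. Itpr1 measured 30.8, 30.2, 28.7 and 19.1 CPM in KO_ASO and 15.03, 20.6, 20.3 and 20.1 CPM in KO_PBS, with the last KO_ASO sample within the range of KO_PBS (log2FC 0.52 ± 0.15 SE, adjusted P = 0.0686). It was called higher with DESeq2 (adjusted P = 0.0282) and limma-voom (adjusted P = 0.0139), and with edgeR without KO_ASO replicate 4 (adjusted P = 0.0108). Cacnb1 ran from 176.2 to 237.1 CPM in KO_ASO and from 235.2 to 293.5 CPM in KO_PBS (log2FC -0.33 ± 0.15 SE, adjusted P = 0.234). Cacng1 ran from 197.9 to 235.8 CPM in KO_ASO (log2FC -0.30 ± 0.15 SE, adjusted P = 0.319). Ryr1 was nearly level, with a log2FC of -0.0029 and a 95% confidence interval from -0.26 to 0.25. In this comparison fast fibre markers summed to 160056 to 186077 CPM in KO_ASO with 0 of 13 called (median log2FC 0.25), and macrophage markers to 57.8 to 88.4 CPM with 7 of 12 called lower. Fetal and denervation markers summed to 97.5 to 153 CPM in KO_ASO, below every KO_PBS sample, and 5 of 10 were called lower (median log2FC -0.84). Fibroblast markers summed to 541, 558, 1687 and 1842 CPM in KO_ASO, low in replicates 1 and 2, with 1 of 7 called lower (median log2FC -0.68). The part of these lists in the triad values was not tested.

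In wild-type muscle the oligonucleotide gave no call among the 36 genes. WT_ASO vs WT_PBS had 0 calls, where 0.00668% of all genes, which is Dnm2 alone, were called by edgeR, and DESeq2 and limma-voom gave 0 calls among the 36 too. At an unadjusted P value under 0.05 stood 3 of the 36 genes, Cacng1, Cacna1h and Atp2b4, against 6.45% of all genes. Cacng1 measured 245.5, 342.2, 287.0 and 196.3 CPM in WT_ASO (log2FC 0.53 ± 0.15 SE, adjusted P = 0.643), with 1 sample within the range of WT_PBS. Cacna1h, at 3.37, 1.74, 2.88 and 4.50 CPM in WT_ASO and 4.47, 4.28, 6.20 and 5.01 CPM in WT_PBS, had a log2FC of -0.68 ± 0.23 SE (adjusted P = 0.687). Atp2b4 ran from 10.6 to 15.5 CPM in WT_ASO and from 16.1 to 20.2 CPM in WT_PBS, without overlap (log2FC -0.45 ± 0.18 SE, adjusted P = 0.736). It was the only one of the 36 whose groups did not overlap, as 3.22% of all genes did not, 1.42% being lower. Of the other genes, Slc8a3 had a log2FC of 0.32, Pvalb one of 0.33 and Atp2b1 one of -0.10. Slc8a3 was at 0.19 without WT_ASO replicate 1, and Atp2b1 at -0.17, -0.045 and -0.059 without WT_ASO replicates 2, 3 and 4. The 36 values had a median of 0.09, against 0.00 over all genes, and 29 of them were positive. With library totals only, or without WT_ASO replicate 3, 22 were positive and 14 negative. Fetal and denervation markers summed to 86.7 to 98.2 CPM in WT_ASO, above every WT_PBS sample, with a median log2FC of 0.06. No gene of the marker lists was called, and their part in the triad values was not tested.

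Against WT_PBS, KO_ASO had 0 calls among the 36 genes, and 2 (Ryr1 and Camk2a) at an unadjusted P value under 0.05, where 0.0401% of all genes were called and 8.22% had such a P value. DESeq2 and limma-voom also gave 0. The groups of Ryr1, Hrc and Camk2a did not overlap, all lower in KO_ASO, where 5.39% of all genes did not overlap and 3.01% were lower. As levels, KO_ASO stood at 91.2% of the WT_PBS mean for Jph1, 94.9% for Stim2, 95.9% for Slc8a3, 89.0% for Pvalb, 81.2% for Jph2, 78.6% for Camk2a and 120% for Camk2d. Against the other 3 WT_PBS samples, without replicate 2, the levels were 102% for Jph1, 103% for Stim2, 94.4% for Slc8a3, 99.6% for Pvalb, 87.8% for Jph2, 86.0% for Camk2a and 133% for Camk2d. Without that sample 19 of the 36 log2FC were positive and 17 negative, in place of 14 and 22, so the direction of the Jph1 and Stim2 levels and the balance of signs rest on it. The intervals allow sizeable differences all the same. For Camk2a the log2FC was -0.35 with a 95% confidence interval from -0.69 to -0.01, and for Jph2 it was -0.30 with an interval from -0.61 to 0.01. Without WT_PBS replicate 2 these values were -0.22 for Camk2a and -0.19 for Jph2. For Jph1 the log2FC was -0.13, with an interval from -0.45 to 0.18. Ryr1 ran from 3257 to 3914 CPM in KO_ASO, below every WT_PBS sample (log2FC -0.31 ± 0.12 SE, adjusted P = 0.547), and stood at 80.8% of WT_PBS where KO_PBS stood at 81.0%. Camk2d had the smallest P value among positive differences, with a log2FC of 0.26 (adjusted P = 0.662), followed by Camk2b at 0.13 and Cacng1 at 0.18. Single samples moved all 3, Camk2d to 0.41 without WT_PBS replicate 2 and Camk2b to 0.068 or 0.076 without KO_ASO replicate 1 or 2. Cacng1 was at 0.30 without WT_PBS replicate 2, at 0.073 without WT_PBS replicate 4 and at 0.12 without KO_ASO replicate 1. Fetal and denervation markers were above every WT_PBS sample in all 4 KO_ASO samples, with 1 of 10 called higher (median log2FC 0.82), and fast fibre markers had a median of -0.16 with 0 of 13 called. Slow fibre markers summed to 273 to 865 CPM in KO_ASO, overlapping the 112 to 408 CPM of WT_PBS, with a median log2FC of 1.53 and 0 of 8 called. Their part in these values was not tested.

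The genotype difference was also read in mice given the oligonucleotide, a comparison that shares no sample with KO_PBS vs WT_PBS. KO_ASO vs WT_ASO had 0 calls among the 36 genes with edgeR, DESeq2 and limma-voom alike, where 0.0735% of all genes were called. At an unadjusted P value under 0.05 stood 9 of the 36, all lower in KO_ASO, against 15.1% of all genes and 8.03% lower. The smallest P values belonged to Ryr1 (log2FC -0.36 ± 0.12 SE, adjusted P = 0.195), Tmem38a (log2FC -0.23 ± 0.084 SE, adjusted P = 0.218) and Camk2a (log2FC -0.44 ± 0.16 SE, adjusted P = 0.224). The 4 KO_ASO samples of Camk2a, between 309.1 and 416.9 CPM, lay below the 4 WT_ASO samples, between 433.0 and 608.3 CPM. Those of Hrc, Srl and Tmem38a did not overlap either and were lower in KO_ASO, where 6.97% of all genes did not overlap and 4.00% were lower. On the positive side the smallest P values were those of Camk2d at 0.25, Atp2b4 at 0.32 and Cacna1h at 0.37, none past the threshold. The largest positive log2FC was that of Casq2, 0.66 (adjusted P = 0.472), with overlapping groups. Without KO_ASO replicate 4, at 24.8 CPM the highest of its group, Atp2b4 was at 0.039. Cacna1h was at 0.17 without WT_ASO replicate 2, at 0.21 without KO_ASO replicate 4 and at 0.61 without WT_ASO replicate 4. Fast fibre markers summed to 190379 to 261524 CPM in WT_ASO, above every KO_ASO sample, with 0 of 13 called and a median log2FC of -0.32. Medians were 0.81 for the fetal and denervation markers and 1.15 for the slow fibre markers, with 0 called in either list, and their part in the triad values was not tested. Of the 36 genes 30 had the same sign in both genotype comparisons (83.3%), and so did 64.0% of all genes tested.

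**Figure D5:**
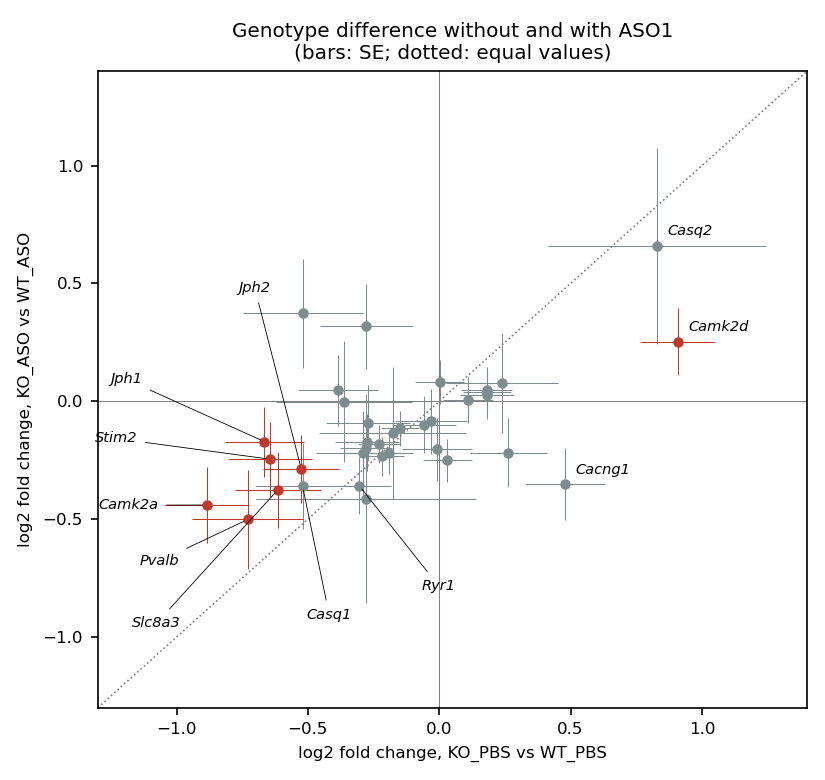
Log2 fold change of KO_ASO vs WT_ASO against that of KO_PBS vs WT_PBS for the 36 genes, with bars of 1 SE, red for genes called in the latter and a dotted line of equal values. The 7 red points keep their sign in both comparisons, as with Camk2d at 0.91 and 0.25, and Cacng1 lies at 0.48 and -0.35.

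The interaction asks whether the response to the oligonucleotide differed between genotypes. With edgeR 0 of the 36 genes passed, where 0.575% of all genes did, and 7 had an unadjusted P value under 0.05, against 12.7% of all genes. DESeq2 called 1, Cacng1, and limma-voom 0. Library totals only and the replicate number as a block also gave Cacng1. Cacng1 had the smallest P value, with an oligonucleotide log2FC of 0.53 in wild-type and -0.30 in Bin1mck-/- muscle, a difference of -0.83 ± 0.22 SE (adjusted P = 0.0972). Without WT_ASO replicate 4 it passed, at an adjusted P value of 0.0466. Camk2d differed by -0.66 ± 0.20 SE (adjusted P = 0.162), so its fall in Bin1mck-/- muscle is not shown to differ from its value of 0.01 in wild-type muscle. Cacnb1 had a difference of -0.48 (adjusted P = 0.341), and Cacna1h, Jph1 and Atp2b4 had positive ones of 0.89, 0.49 and 0.60, with adjusted P values from 0.249 to 0.338. That of Atp2b4 was 0.32 without KO_ASO replicate 4.

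As an average over the 36 genes on the log2 CPM scale, samples stood at 7.62 ± 0.12 in WT_PBS, 7.66 ± 0.095 in WT_ASO, 7.46 ± 0.062 in KO_PBS and 7.56 ± 0.025 in KO_ASO (SD, n = 4). The lowest WT_PBS sample, at 7.55, was above the highest KO_PBS sample, at 7.51. With library totals alone the difference of KO_PBS from WT_PBS went from -0.156 to -0.00629, so the average depends on the scaling. No test was made of it.

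Genes that work beside the 36 were read from 4 further lists. Of the 6 SERCA pumps and their regulators, which refill the store, 2 were higher and 2 lower in KO_PBS, where 12.6% of all genes tested were called, 7.43% higher and 5.12% lower, a share that also stands behind the counts of the other 3 lists. Sln, the pump inhibitor sarcolipin, rose from 0.788 to 16.6 CPM in group means (log2FC 4.39 ± 0.50 SE, adjusted P = 5.67e-05) and Atp2a2, the slow-type pump, by a log2FC of 0.76. Atp2a1, the fast-type pump, fell by 0.43 on the log2 scale and Mrln, the inhibitor myoregulin, fell by 0.70 on that scale. Sln was also the only gene of these 4 lists to pass in the interaction (log2FC -3.55 ± 0.67 SE, adjusted P = 0.0314), falling in KO_ASO vs KO_PBS by 2.59 on the log2 scale.

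Of 16 other channel subunits tested, Cacnb4 was higher in KO_PBS and Cacna1c and Cacng7 lower. Among 23 other genes of calcium transport and buffering 6 were higher and 5 lower. The mitochondrial calcium uniporter Mcu and its regulator Micu2 were among the higher ones, with log2FC of 0.36 and 0.71, beside the channel gene Orai2, which rose from 1.08 to 2.18 CPM in group means. The calmodulin gene Calm3 was lower, at -0.84, as were the calcineurin subunit Ppp3cb at -0.61 and the pump Atp2b3 at -0.46. Among 15 genes that shape the tubule or carry its excitability 3 were higher and 4 lower, and those higher included Dysf (0.59) and Cav3 (0.74), which encode the repair protein dysferlin and caveolin-3. Lower were Bin1 itself, the sodium channel Scn4a (-0.49), the chloride channel Clcn1 (-0.41) and the potassium channel Kcnj12 (-0.61). In KO_ASO vs KO_PBS, where 3.64% of all genes were called, the calls in these 4 lists were Cacng7 and Calm3, which rose, and Sln, Slc8b1, Dnm2, Cav3 and Dysf, which fell.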

How the data were processed

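RNA from 16 tibialis anterior samples was sequenced after TRI Reagent extraction and a stranded mRNA library kit, per the labels. The deposited values are raw counts of reads for each Ensembl gene, which the authors had not normalized. STAR 2.5.3a, HTSeq 0.6.1p1, Bowtie2 2.2.8, cutadapt 1.10 and GRCm38 (mm10) are listed in the processing notes of the submitters without roles, and the annotation release and strand setting of the counting were not given in the sources used here. All 29730 identifiers matched GENCODE M21, which gave symbols, coordinates and the exon lengths behind levels per kb; promoters came from RefSeq on GRCm38.p6.

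Counts were filtered with filterByExpr (14960 genes left), scaled by TMM and fitted with edgeR 4.0.16 (robust quasi-likelihood, R 4.3.3) over all 16 samples with 1 mean per group, and P values were adjusted by Benjamini-Hochberg over all genes tested, with calls under 0.05. The common biological coefficient of variation was 18.7%. With 4 against 4 samples no two-sided exact permutation P value can be below 0.0286. The script was tested on simulated data. Members and lists were chosen with earlier results of these data known. Genes given in full were those called in any comparison, the 3 members with the smallest P value in each direction of each comparison, and the least and most abundant. Alternatives were DESeq2 1.42.0, limma-voom (limma 3.58.1) with sample quality weights, other scalings, no filter, the compared groups only, the replicate number as a block, and each sample left out. Limma-voom was run only with these weights, so its calls differ from the main fit in both the tool and the weighting.

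The marker lists not taken up in the text covered endothelium and smooth muscle (2 of 10 lower in KO_PBS vs WT_PBS), nerve and Schwann cells (0 of 6 tested) and fat cells (0 of 5). Of the 4 pathway lists 1 gene had no identifier in the table. Some genes of these lists are not reported here.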

Additional observations from a re-analysis of the deposited data

Results flagged for a closer look

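In groups of 4 samples, a sample was singled out where its gap to the nearest other one exceeded Dixon's 95% critical value, which chance does in about 1 of 20 groups. Of 144 groups, 10 were singled out. Pvalb accounted for 3 of them, with WT_PBS replicate 2 highest at 12924 CPM, WT_ASO replicate 1 lowest at 8502 CPM and KO_PBS replicate 1 lowest at 3453 CPM. Calr was highest at 146.4 CPM in WT_PBS replicate 3 and at 195 CPM in KO_ASO replicate 4. KO_PBS replicate 1 was also lowest for Itpr1 at 15.03 CPM. The remaining ones were Orai1 at 31.25 CPM in WT_PBS replicate 2 (highest), Slc8a1 at 18.88 CPM in WT_PBS replicate 3 (lowest), Srl at 2039 CPM in KO_ASO replicate 2 (lowest) and Ryr3 at 1.071 CPM in WT_ASO replicate 2 (highest), a gene with few counts.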

How the results depend on the processing

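Camk2d, Camk2a and Jph1 stayed called in KO_PBS vs WT_PBS under every alternative tried, and no called value changed direction. In that comparison 7 members were called, 11 with DESeq2 and 12 with limma-voom with quality weights, and 3 to 8 when each sample was left out. The shares of all genes given above belong to the main fit. Those under each alternative are not set beside the counts here and below, so whether the members exceed them cannot be read from these counts. In KO_ASO vs KO_PBS 1 was called, 6 with DESeq2, 6 with limma-voom (Camk2a, Itpr1, Jph1, Slc8a3 and Stim2 higher in both), 2 with the compared groups only (Stim2 added) and 0 to 5 when each sample was left out: 0 without KO_PBS replicate 1, KO_PBS replicate 4 or KO_ASO replicate 1, and 5 without KO_ASO replicate 4 (Camk2a, Itpr1, Jph1 and Slc8a3 added). The interaction gave 0, 1 with DESeq2, 1 with library totals only and 0 to 1 when each sample was left out. Counts stayed at 0 under all alternatives for WT_ASO vs WT_PBS, KO_ASO vs WT_PBS and KO_ASO vs WT_ASO. The average over members, with library totals only, was -0.00629 for KO_PBS vs WT_PBS, -0.00329 for KO_ASO vs KO_PBS and -0.00129 for KO_ASO vs WT_ASO. Leaving out each sample in turn gave -0.181 to -0.0966 for KO_PBS vs WT_PBS, 0.0545 to 0.0970 for KO_ASO vs KO_PBS, 0.0110 to 0.09996 for WT_ASO vs WT_PBS, -0.0897 to -0.00574 for KO_ASO vs WT_PBS, -0.144 to -0.0765 for KO_ASO vs WT_ASO and -0.00912 to 0.0799 for the interaction. The value nearest 0 came without WT_PBS replicate 2 for KO_PBS vs WT_PBS, KO_ASO vs WT_PBS and the interaction, where the sign turned. Pvalb was also lost with no filter (adjusted P = 0.0776) and with the compared groups only (adjusted P = 0.0602). With the replicate block the counts were 10 for KO_PBS vs WT_PBS (Cacng1, Casq1 and Camk2g added), 4 for KO_ASO vs KO_PBS (Camk2a, Jph1 and Stim2 higher beside Camk2d) and 1 for the interaction (Cacng1). The labels do not say whether the numbers link samples of different groups, so the main fit did not pair them. The samples did share some variation by number. Of 24 same-number pairs of deviations 11 correlated above 0.1 (-0.078 to 0.435), and their median was 0.075 against -0.027 for other pairs. By mean correlation 13 of 16 samples correlated best with their own number. Depth limits Ryr3 most, at 9 to 39 counts per sample.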
